A study of Mus musculus with 21 samples.

Results

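Pericytes were followed across primary tumors, lung metastases and unchallenged lung in a mouse melanoma model. The cells were chosen by their own measured counts: a cell was taken as a pericyte when it held a UMI (unique molecular identifier, 1 captured RNA molecule) of at least 3 of 7 genes, Rgs5, Higd1b, Notch3, Cox4i2, Vtn, Trpc6 and Gucy1a1, and no UMI of Ptprc (leukocytes), Pecam1 (endothelial cells), Hhip (peribronchial fibroblasts) or Epcam (epithelium). This rule found 106 cells among 51511, namely 71 in primary tumors, 25 in metastases and 10 in unchallenged lung.

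Fragments of MT-ret melanoma, which carry no fluorescent label, had been transplanted under the skin of mT/mG mice. In this strain a membrane-bound tdTomato is expressed from the Rosa26 locus in all host cells as long as no Cre recombinase is present, so the host part of a tumor, the tumor microenvironment (TME), could be sorted as tdTomato+ cells. The 3 groups used here are the TME of primary tumors, taken at resection, the TME of lung metastases that grew afterwards, and lung of mice without tumor, called unchallenged lung, with 4 libraries each. By the paper, the metastasis samples also held a little adjacent lung without tumor. Which metastasis pericytes came from it is not known. Some cell suspensions were also depleted of CD45+ leukocytes, and which ones is not given per library. The sample labels name lung as the tissue of every sample, whereas the metadata deposited with the counts name skin for primary tumors. The labels give replicates 1-3 of primary tumor and of metastasis as 1 sample each, and the cells deposited under their separate names were joined to 1 library each. Libraries deposited under 2 numbers were used once. By the mouse numbers in the library names used, the libraries of 1 tissue come from different mice. By the same names, replicates 1-3, 5 and 6 of primary tumor and metastasis share mice between the sites. Metastasis replicates 5 and 6 and primary tumor replicate 6 were each deposited again, with identical counts, under another mouse number. Under either name the 2 libraries of replicate 6 carry the same mouse number. The pairing of replicate 5 by mouse is therefore uncertain, as is the mouse number of replicate 6.

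Pericytes are mural cells that wrap capillaries and small venules inside the basement membrane they share with the endothelium. Endothelial PDGF-B recruits them through the receptor PDGFRβ, Notch3 signaling keeps their identity, and nitric oxide relaxes them through soluble guanylate cyclase and cGMP. In tumors they are often loosely attached, and in lung they line the alveolar capillaries.

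The cells were shallow and few in lung, which bounds every statement on it. The 71 primary tumor pericytes held 537226 UMIs (median 8497 per cell), the 25 metastasis pericytes 154319 (median 5848) and the 10 lung pericytes 33110 (median 2553). By library these were 3, 48, 8 and 12 cells in primary tumor replicates 1-3, 4, 5 and 6, then 21 and 4 cells in metastasis replicates 5 and 6, and 1, 5, 3 and 1 cells in lung replicates 1, 4, 5 and 6. Metastasis replicates 1-3 and 4 held none. Levels are given in CPM, UMIs of a gene per 1000000 UMIs summed over the pericytes of a library, in this order of libraries throughout. A single UMI is worth 857 CPM in lung replicate 1 and 683 CPM in lung replicate 6, so a 0 there says little, against 63.5 and 67.9 CPM in lung replicates 4 and 5 and 2.73 CPM in primary tumor replicate 4. No pericyte barcode was shared between libraries.

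Of the marker genes that the rule did not use, Pdgfrb was seen in most cells of each tissue, while Kcnj8 and Abcc9 were seen in few lung cells. Kcnj8 had a UMI in 0 of the 8 lung cells without Acta2 (α-smooth muscle actin) and in 1 of the 2 with it. For Abcc9 these counts were 1 and 2. Pdgfrb was set against endothelial cells and not against fibroblasts. Pdgfrb, the PDGF-B receptor, had a UMI in 97.2% of primary tumor, 88% of metastasis and 90% of lung pericytes, against 4.03%, 1.07% and 0.379% of endothelial cells of the same tissues, which gives the level that free RNA can reach (median UMIs of endothelial cells by library 5321 to 7783, 1818 to 4940 and 1532 to 4495). After each cell was thinned to 1000 UMIs these shares were 56.3%, 56% and 50% in pericytes. Its level was 1094, 929, 977 and 697 CPM in primary tumor, 879.6 and 1388 CPM in metastasis and 0, 2032, 475 and 2049 CPM in lung. Cspg4, which encodes the proteoglycan NG2, lay at 365, 322, 249 and 585 CPM in primary tumor, 469.6 and 793 CPM in metastasis and 0, 698, 204 and 683 CPM in lung. Mcam, an adhesion molecule of mural cells, lay at 527, 422, 437 and 564 CPM in primary tumor, 201 and 99.2 CPM in metastasis and 0, 635, 475 and 683 CPM in lung. Pdgfrb and Cspg4 overlapped between tissues. Mcam overlapped between primary tumor and lung, while every primary tumor library lay above both metastasis libraries. In libraries with at least 3 pericytes, the tumor sites did not overlap for 13.2% of the 733 genes tested. A single UMI is worth 49.6 CPM in metastasis replicate 6.

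The edge of the rule held cells that were less clearly mural. The 26 pericytes with exactly 3 of the 7 genes (17, 4 and 5 in primary tumor, metastasis and lung; median 4246 UMIs) had Pdgfrb in 80.8% and a summed Dcn level of 964 CPM, where Dcn encodes decorin of fibroblasts. The 60 cells just outside, with 2 genes (median 3237 UMIs), had Pdgfrb in 58.3% and Dcn at 1693 CPM. Without the 4 excluding genes the rule was met by 83, 35 and 14 cells in the 3 tissues, and most of the cells left out carried Pecam1 (8, 9 and 3).

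Markers of other cells were present in these pericytes. Club cell RNA, led by Scgb1a1, was at 0 in all 4 primary tumor libraries and at 0.228% and 0.233% of UMIs in the 2 metastasis libraries. It took 0.086%, 0.006%, 0.339% and 0.273% in lung. The 12 melanoma genes took 0.020% to 0.098% in primary tumor, 0.274% and 0.094% in metastasis and 0 in lung. Fibroblast markers took 0.049% to 0.167% in primary tumor, 0.113% and 0.069% in metastasis and 0 to 0.339% in lung, where Dcn, Lum and Pdgfra were at 0. Macrophage genes took 0.032%, 0.094%, 0 and 0 in primary tumor, 0.0022% and 0.0050% in metastasis and 0.086%, 0.0063%, 0.020% and 0.068% in lung, where 1 UMI is a large share. At least 2 of 5 melanoma genes had a UMI in 1 of 3, 4 of 48, 3 of 8 and 6 of 12 pericytes in primary tumor. In metastasis this held for 20 of 21 and 1 of 4 and in lung for 0, so leaving such cells out nearly empties metastasis replicate 5. Between primary tumor and lung, 43 genes were called without cells holding 2 melanoma genes and 43 without cells holding at least 5 Dcn and at most 1 Rgs5 UMI, against 30 with them. The part of club cell and macrophage RNA in the results was not tested.

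By this rule, pericytes made up a larger part of the cells without a Ptprc UMI in primary tumors than in lung. Of the cells without a Ptprc UMI, they were 1.83%, 6.83%, 2.66% and 0.504% in the primary tumor libraries. In metastasis they were 0, 0, 0.416% and 0.548%, where the zeros allow up to 1.94% and 1.82%. In lung they were 0.119%, 0.350%, 0.136% and 0.0196%. The mean share was 2.95% ± 2.73 (SD, n = 4) in primary tumor, 0.241% ± 0.283 in metastasis and 0.156% ± 0.139 in lung. Primary tumor and lung did not overlap (exact permutation test, two-sided, p = 0.0286, the smallest p that 4 against 4 libraries allow). Rgs5, 1 of the 7 rule genes, had no UMI in 3 of 71 primary tumor and 9 of 10 lung pericytes. In primary tumor replicate 6, the lowest of its tissue, 6 of 12 pericytes held just 3 rule genes. Shares under a rule without Rgs5 were not tested. Without cells holding 2 melanoma genes the difference was 2.19 percentage points in place of 2.80, with p = 0.0571 (exact permutation). After each cell was thinned to 1000 UMIs it was 0.854 and over all cells 1.22, with p = 0.0286 (exact permutation) in both. Cells without Ptprc were counted anew after thinning. They were 1581 in place of 703 in primary tumor replicate 4 and 291 in place of 301 in replicate 5. The thinned value thus mixes depth with a changed denominator. The closest thinned shares were 0.271% in primary tumor replicate 6 and 0.261% in lung replicate 4. Without primary tumor replicate 4 the difference to lung was 1.51, and that of metastasis to primary tumor was -1.42 in place of -2.71. Metastasis overlapped with primary tumor (p = 0.0571, exact permutation) and with lung (p = 0.657, exact permutation). Libraries differed in the cells that lacked Ptprc, and which were depleted is not given, so the part of the sort in these shares was not tested: 164 of 668 and 703 of 3123 cells lacked Ptprc in primary tumor replicates 1-3 and 4, against 301 of 303 and 2381 of 2383 in replicates 5 and 6.

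Set against endothelial cells of the same library, which does not depend on leukocyte depletion, the order was the same. There were 7.5, 56.5, 7.92 and 4.88 pericytes per 100 endothelial cells in primary tumors, 0, 0, 3.24 and 3.23 in metastases and 0.145, 0.418, 0.254 and 0.160 in lung. The means were 19.2 ± 24.9 (SD, n = 4), 1.62 ± 1.87 and 0.244 ± 0.126. Primary tumors lay above metastases and above lung without overlap (p = 0.0286 in both exact permutation tests, two-sided). The same rule genes chose these pericytes, and ratios under a rule without Rgs5 were not tested. After thinning to 1000 UMIs both had p = 0.0571 (exact permutation), and so had metastasis against primary tumor with at least 4 of the 7 genes. Metastasis and lung overlapped, since 2 metastasis libraries had no pericyte and the other 2 lay above every lung library (p = 0.429, exact permutation). Primary tumor replicate 4 stood far above the rest, and without it the difference to lung was 6.52 per 100 in place of 18.9, with p = 0.0571, the smallest an exact permutation of 3 against 4 libraries can give. The difference to metastasis without it was 5.15 in place of 17.6. How far dissociation and freezing set these yields was not tested.

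**Figure D1:**
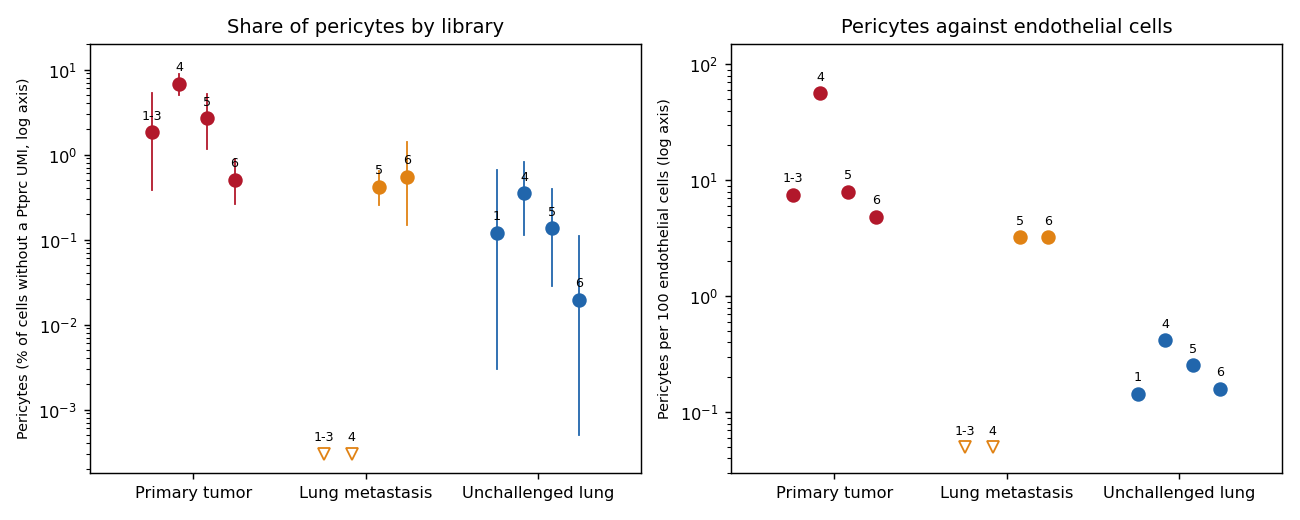
Pericytes of each library, by tissue. Left, percent of the cells without a Ptprc UMI that are pericytes (log axis, bars are exact 95% binomial intervals, which cover counting error only); right, pericytes per 100 endothelial cells (log axis). Open triangles mark the 2 metastasis libraries with 0 pericytes; all primary tumor libraries lie above all lung libraries in both panels.

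The 7 genes that define the cells were themselves unevenly used, which is given as a description since they chose the cells. Rgs5, a brake on G protein signaling and the classic pericyte transcript, lay at 6806, 6655, 5716 and 4687 CPM in primary tumor, 1304 and 2876 CPM in metastasis and 0, 0, 136 and 0 CPM in lung. It was thus high in every primary tumor library, lower in metastasis and nearly missing in lung, where 1 of 10 pericytes held any. Gucy1a1, the alpha subunit of soluble guanylate cyclase, ran the other way, with 284, 444, 291 and 195 CPM in primary tumor, 425 and 298 CPM in metastasis and 10283, 5333, 1154 and 10246 CPM in lung. Cox4i2, a cytochrome c oxidase subunit isoform, lay at 405, 409, 146 and 82 CPM in primary tumor, 499 and 0 CPM in metastasis and 1714, 3301, 475 and 683 CPM in lung. Higd1b overlapped between the tissues, with 486, 371, 312 and 30.8 CPM in primary tumor, 656 and 99.2 CPM in metastasis and 2571, 1016, 136 and 1366 CPM in lung. Notch3, the Notch receptor of mural cells, lay at 1053, 521, 998 and 789.7 CPM in primary tumor, 268 and 347 CPM in metastasis and 0, 825, 679 and 2049 CPM in lung, so every primary tumor library was above both metastasis libraries and lung spanned them all. Between the tumor sites 13.2% of the 733 genes tested did not overlap. Vtn, vitronectin, lay at 405, 147, 312 and 71.8 CPM in primary tumor, 96.9 and 99.2 CPM in metastasis and 0, 444, 67.9 and 683 CPM in lung, and the cation channel gene Trpc6 at 284, 125, 62.4 and 82 CPM in primary tumor, 96.9 and 149 CPM in metastasis and 0, 825, 136 and 683 CPM in lung.

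Single cells showed that these levels mix different pericytes. Lung held a set of 8 cells with no Acta2 UMI (α-smooth muscle actin) and no Rgs5, in all of which Pdzd2, a PDZ domain protein, was present, at 9909 CPM over the set. The same 8 cells held Postn (periostin) at 3656 CPM, Pde5a at 3993 CPM, Gucy1b1 at 2742 CPM and Gucy1a1 at 6061 CPM, and 7 of them held Tbx5. The other 2 lung cells, both of replicate 5, had 24 and 169 Acta2 UMIs, Myh11 at 7223 CPM and Tagln at 9090 CPM, and no UMI of Pdzd2 or Higd1b. They pass the rule, but their leading genes are those of contractile mural cells.

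None of 71 primary tumor pericytes had 5 or more Pdzd2 UMIs (the highest was 3), against 6 of 10 in lung. In metastasis 3 of 25 did, 2 in replicate 5 with no Rgs5 UMI and 1 in replicate 6 with 14. Whether they came from the adjacent lung was not tested. These 3 had no Acta2 UMI, Rgs5 at 2219 CPM against 1479.6 CPM in the other 22 metastasis pericytes, Pdzd2 at 5231 against 87.8 CPM, Gucy1a1 at 2219 against 331 CPM, Gucy1b1 at 1744 against 142 CPM and Pde5a at 1427 against 74.3 CPM. A count of 5 or more Rgs5 UMIs was met by 64 of 71 primary tumor, 13 of 25 metastasis and 0 of 10 lung pericytes. A further 4 metastasis and 2 primary tumor cells had at least 5 Dcn UMIs and at most 1 of Rgs5, and the 4 in metastasis held Col1a1 at 7327 CPM.

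**Figure D2:**
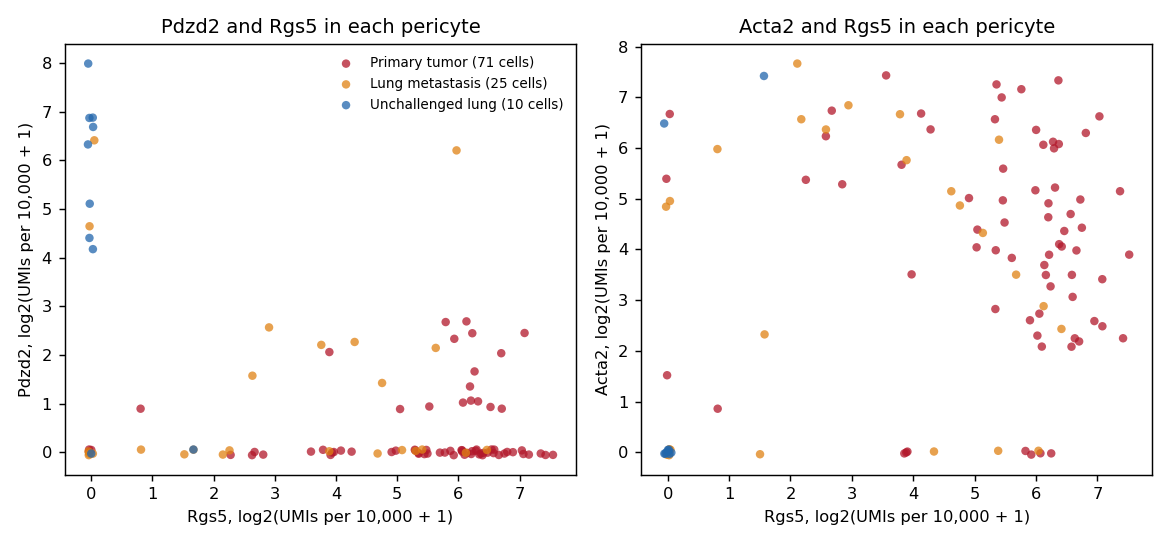
Every pericyte as a point, with Rgs5 on the x axis and Pdzd2 (left) or Acta2 (right) on the y axis, both as log2(UMIs per 10000 + 1) with slight jitter, colored by tissue. Lung cells stand at 0 Rgs5 and high Pdzd2 apart from the 2 cells with Acta2, primary tumor cells at high Rgs5 and low Pdzd2, while 2 metastasis cells with 5 or more Pdzd2 UMIs lie at 0 Rgs5 with the lung cells and 1 more such cell holds Rgs5.

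Within a tumor, pericytes differed in their contractile genes. In primary tumor replicate 4, 22 cells had at least 2000 CPM of Acta2 and 26 less, with 16 of the 48 between 1000 and 4000 CPM. The cells below had Kcnj8 at 925 CPM against 319 CPM above and Abcc9 at 678 against 314 CPM, which together form a potassium channel that senses ATP. They also had more Rgs5 (7646 against 5804 CPM), Cox4i2 (548 against 289 CPM) and Pdgfrb (1191 against 705 CPM), while Myh11 was at 159 against 867 CPM and Tagln at 259 against 3568 CPM. In metastasis replicate 5, 9 cells below the split against 12 above it had Kcnj8 at 481 against 227 CPM, Rgs5 at 2245 against 941 CPM and Higd1b at 1042 against 507 CPM. Ndufa4l2, a mitochondrial subunit gene of pericytes, ran the other way there, at 695 against 1426 CPM. In primary tumor replicate 6 (4 cells below, 8 above) Abcc9 was at 1001 against 165 CPM, while Kcnj8 was nearly equal at 160 and 165 CPM and Cox4i2 lower below the split, at 40 against 96.5 CPM. These values compare cells of 1 library and carry no test, and cells below the split were shallower (median 6262 against 9725 UMIs in replicate 4).

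For tests between tissues, counts were summed over the pericytes of each library. Only primary tumor replicates 4 and 6 and metastasis replicate 5 reached 10 pericytes, so lung was compared in a fit of the 8 libraries with at least 3 (edgeR quasi-likelihood test, Benjamini-Hochberg adjusted, 733 genes tested). In this fit lung stands for replicates 4 and 5, with 5 and 3 cells. The 2 lung cells with Acta2, both of replicate 5, held 12321 of its 14728 pericyte UMIs, so its levels are mostly those of contractile mural cells. No fit left out these 2 cells alone. A second fit of libraries with at least 5 pericytes tested 3304 genes, but with lung replicate 4 and metastasis replicate 5 as the lone libraries of their tissue, assumed to vary like the others. Since a primary tumor lies under the skin, its difference from lung may be one of site or of tumor, and these cannot be told apart.

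Tbx5, Gucy1b1 and Pde5a were lower in primary tumor than in lung pericytes, and 10 interstitial matrix genes, Col1a1 among them, were higher. Of these, Col5a3, Thbs1, Loxl2 and Col12a1 had no UMI in lung and could only come out higher. Tbx5 had no UMI in primary tumor and could only come out lower. With at least 3 pericytes per library, 30 of 733 genes were called (4.09%), 16 higher in primary tumor (2.18%) and 14 lower (1.91%), with a median log2 fold change over all genes of 0.21. The groups did not overlap for 35.6% of the genes tested. The club cell gene Scgb1a1 was also among the 14 lower genes (no UMI in primary tumor, at least 276-fold lower, adjusted p = 0.00246), and the part of RNA from other cells was not tested. The rule genes Rgs5, Gucy1a1 and Cox4i2 are among the 30 and are a description only. Of the other named genes, Col1a1 and Col5a3 stayed called whichever library was left out.

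**Figure D3:**
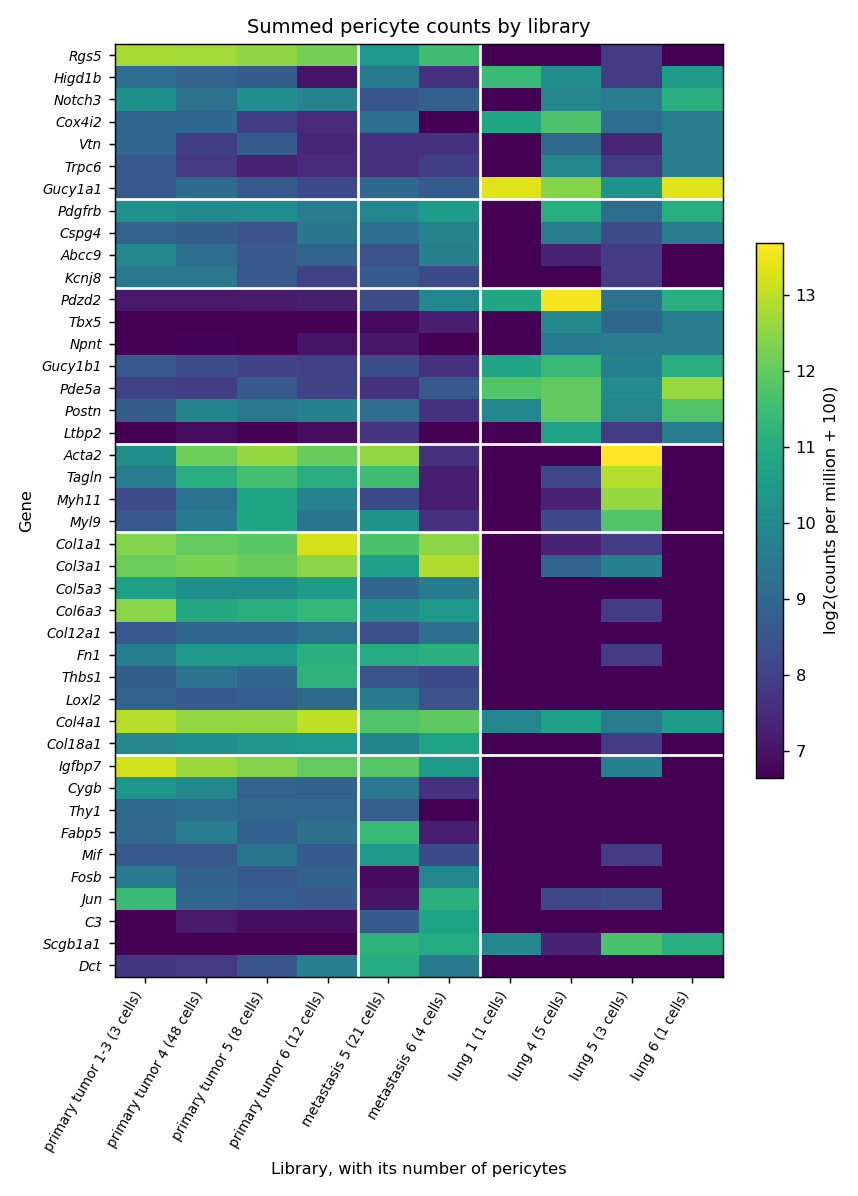
Levels of 42 pericyte, position, vasoactive, matrix, contractile and other genes (rows) in the pericytes of 10 libraries (columns, by tissue), as log2(CPM + 100). Pdzd2, Tbx5, Pde5a and Gucy1b1 are high in lung columns and low in primary tumor columns, and fibrillar collagens the reverse; lung replicates 1 and 6 are 1 cell each.

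Pdzd2 (chr15:12359711-12739924, minus strand, GRCm38) had one of the larger differences. It lay at 40.5, 40.9, 41.6 and 51.3 CPM in primary tumor, 216 and 843 CPM in metastasis and 1714, 12253, 543 and 2049 CPM in lung. Every lung library was above every tumor library except metastasis replicate 6, which lay above lung replicate 5. Against lung it was 156-fold lower in primary tumor (log2 fold change -7.28, SE 1.01, adjusted p = 0.0016), and without lung replicate 4 the value was -3.45 with an adjusted p = 0.0517. In endothelial cells Pdzd2 was at 41.2 to 67.9 CPM in primary tumor and 81.2 to 133 CPM in lung.

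Tbx5, a T-box factor that patterns lung mesenchyme (chr5:119832668-119885219, plus strand), had no UMI in 71 primary tumor pericytes, 14.9 and 49.6 CPM in metastasis and 0, 889, 407 and 683 CPM in lung. It was seen in 9 of 10 lung and 3 of 25 metastasis pericytes (60% and 4% after thinning), against 0.135% and 0.322% of endothelial cells (0.056% and 0 after thinning), and the 0 of 71 allows a share of cells with a UMI of up to 4.23%, which does not limit the share that express it. Against the floor of 3 counts over the primary tumor group it was at least 118-fold lower than in lung (adjusted p = 0.00571, edgeR). The adjusted p was 0.0515 without primary tumor replicate 4. Lung fibroblasts also carried Tbx5, at 36.1 to 116 CPM. Its relatives Tbx2 (chr11:85832551-85841948) and Tbx4 (chr11:85886422-85916097) lie beside each other. Tbx2 was at 122, 89.9, 187 and 51.3 CPM in primary tumor, 157 and 0 CPM in metastasis and 857, 1778, 67.9 and 683 CPM in lung and fell in the fit of at least 5 pericytes (log2 fold change -3.56, SE 0.59, adjusted p = 1.61e-04). Tbx4 was at 0 in every primary tumor library, at 74.5 and 0 CPM in metastasis and at 0, 254, 0 and 683 CPM in lung. Tbx3 lay at 40.5, 43.6, 41.6 and 30.8 CPM in primary tumor, 37.3 and 99.2 CPM in metastasis and 0, 127, 0 and 0 CPM in lung and was not called in the fit of at least 5 (-1.05, adjusted p = 0.712).

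Prrx1, a homeobox factor of limb and trunk mesenchyme, lay at 365, 449.7, 561 and 492 CPM in primary tumor, 328 and 149 CPM in metastasis and 0, 0, 272 and 0 CPM in lung. Of 19 body wall position genes it was the one tested in the fit of at least 3 pericytes, and was not called (log2 fold change 1.66, SE 0.87, adjusted p = 0.327). The fit of at least 5 leaves out lung replicate 5, the one with Prrx1. It called Prrx1 (at least 2.46-fold higher than the floor of 3 counts in lung, adjusted p = 0.0176), but both genes of the list tested there had no UMI in lung replicate 4, so they could only be higher in primary tumor. Hoxc6, named after its values were seen, lay at 81, 73.6, 83.2 and 113 CPM in primary tumor and had no UMI in any metastasis or lung pericyte. Of the 18 lung position genes, 1 was tested in the fit of at least 3 (Tbx5) and 5 in that of at least 5, with 2 lower in primary tumor and none higher, where 1.3% of all genes were lower. Of the 5, 2 had no UMI in 1 of the tissues, which fixes their direction. Tbx5, called in both fits, had no UMI in primary tumor and could only be lower there.

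Gucy1b1, the beta subunit of soluble guanylate cyclase (chr3:82032006-82074689, beside Gucy1a1 at chr3:82092427-82145789), lay at 284, 215, 166 and 154 CPM in primary tumor, 224 and 99.2 CPM in metastasis and 1714, 2603, 747 and 2049 CPM in lung. Every lung library was above every tumor library, and primary tumor was 9.36-fold lower (log2 fold change -3.23, SE 0.58, adjusted p = 0.00506). Pde5a, the phosphodiesterase that breaks cGMP down, lay at 162, 142, 291 and 174 CPM in primary tumor, 104 and 298 CPM in metastasis and 3428, 3936, 951 and 6148 CPM in lung, again without overlap and 14.1-fold lower in primary tumor (log2 fold change -3.82, SE 0.68, adjusted p = 0.00506). Both calls rest on lung replicate 4: without it the values were -1.78 (adjusted p = 0.282) for Gucy1b1 and -2.19 (adjusted p = 0.167) for Pde5a. Endothelial cells held at most 18 CPM of Gucy1b1 in any library. Of the 21 vasoactive genes 6 were tested, 2 fell (Gucy1b1 and Pde5a, against 1.91% of all genes), none rose, and their median log2 fold change was -0.84. Other receptors of the list overlapped, such as the endothelin receptor gene Ednra at 324, 324, 312 and 277 CPM in primary tumor, 239 and 99.2 CPM in metastasis and 0, 508, 136 and 0 CPM in lung.

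Npnt, nephronectin, an integrin ligand of alveolar basement membranes, lay at 0, 5.45, 0 and 30.8 CPM in primary tumor, 37.3 and 0 CPM in metastasis and 0, 635, 679 and 683 CPM in lung and was 61.9-fold lower in primary tumor than in lung (log2 fold change -5.95, SE 1.16, adjusted p = 0.00719; adjusted p = 0.0515 without primary tumor replicate 4). Lung fibroblasts held it at 736 to 2803 CPM and primary tumor fibroblasts at 0 to 19 CPM. Ltbp2, a protein of elastic fibers, lay at 0, 19.1, 0 and 20.5 CPM in primary tumor, 112 and 0 CPM in metastasis and 0, 1587, 136 and 683 CPM in lung. It was lower in primary tumor in the fit of at least 5 (log2 fold change -5.84, SE 0.67). Postn did not pass the test in either direction in the fit of at least 3 (log2 fold change -2.04, SE 0.63, adjusted p = 0.0799), with 324, 801, 603 and 749 CPM in primary tumor, 469.6 and 99.2 CPM in metastasis and 857, 3936, 815 and 3415 CPM in lung.

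Of 29 further pericyte genes 16 were tested, of which Thy1 rose (2.18% of all genes rose) and Pdzd2 and Gucy1b1 fell (1.91% of all), with a median log2 fold change of -0.62. Kcnj8 lay at 608, 599.6, 291 and 164 CPM in primary tumor, 298 and 198 CPM in metastasis and 0, 0, 136 and 0 CPM in lung, and did not pass (2.41, adjusted p = 0.208). Abcc9, its partner in the potassium channel, lay at 851, 482, 291 and 379 CPM in primary tumor, 239 and 744 CPM in metastasis and 0, 63.5, 136 and 0 CPM in lung (2.10, adjusted p = 0.265). For both genes every primary tumor library lay above every lung library. Ebf1, a transcription factor of mural cells, lay at 972, 1289, 1122 and 1928 CPM in primary tumor, 373 and 1388 CPM in metastasis and 0, 1143, 339 and 2049 CPM in lung, with overlap.

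Of 37 listed interstitial matrix genes 24 were tested, 10 rose in primary tumor against lung and none fell, where 2.18% of all genes rose. Of the 24, 5 had no UMI in lung and could only be higher in primary tumor, and 4 of these are among the 10. The median log2 fold change was 3.66 against 0.21 over all genes, and 2.50 with those 5 genes set at their bound. Col1a1, the main chain of type I collagen (chr11:94936224-94953042), lay at 5145, 3968, 3700.2 and 9486 CPM in primary tumor, 3153 and 5554 CPM in metastasis and 0, 63.5, 136 and 0 CPM in lung. It was 50.9-fold higher in primary tumor than in lung (log2 fold change 5.67, SE 1.09, adjusted p = 0.0071). Col5a3, a chain of type V collagen (chr9:20770050-20815067), lay at 1499, 1046, 1039 and 1374 CPM in primary tumor and 417 and 645 CPM in metastasis and had no UMI in any lung pericyte, at least 11.4-fold higher against the floor of 3 counts over the lung group (adjusted p = 0.00506, edgeR). Primary tumor fibroblasts also held more of both than lung fibroblasts, with 5160.0 to 9456 against 784 to 1803 CPM of Col1a1 and 565 to 1496 against 0 to 21.9 CPM of Col5a3.

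Glycoproteins and a collagen-modifying enzyme were among the 10. Fn1, fibronectin, lay at 729, 1297, 1309.6 and 2123 CPM in primary tumor, 1908 and 2132 CPM in metastasis and 0, 0, 136 and 0 CPM in lung and rose 18.7-fold (log2 fold change 4.23, SE 1.02, adjusted p = 0.0345). Thbs1, thrombospondin, an inhibitor of angiogenesis that also activates TGF-β, lay at 324, 521, 416 and 2266 CPM in primary tumor and 261 and 198 CPM in metastasis with no UMI in lung, at least 8.32-fold higher (adjusted p = 0.0454). Col6a3, a microfibrillar collagen chain, lay at 5469, 1791, 2079 and 2472 CPM in primary tumor, 924 and 1239.7 CPM in metastasis and 0, 0, 136 and 0 CPM in lung (log2 fold change 5.26, SE 1.06, adjusted p = 0.00918; 4.49 with adjusted p = 0.0549 without lung replicate 4). Loxl2, which cross-links collagen, lay at 365, 308, 333 and 441 CPM in primary tumor and 649 and 248 CPM in metastasis with no UMI in lung, at least 3.42-fold higher (adjusted p = 0.0361). Col12a1 had no UMI in lung, at least 4.27-fold higher (adjusted p = 0.0461). Col6a1, Col5a1 and Col5a2 rose too, with log2 fold changes of 3.71, 4.60 and 3.80. The calls of Fn1, Thbs1, Col6a1, Col12a1 and Loxl2 were lost without primary tumor replicate 4 (Fn1 4.09, adjusted p = 0.098) and without lung replicate 4 (Fn1 3.49, adjusted p = 0.161), among others. Col1a2 (2.98, adjusted p = 0.0584) and Col3a1 (2.90, adjusted p = 0.0878) did not pass. The surface protein Thy1 and the globin Cygb, both known from fibroblast-like mural cells, had no UMI in lung pericytes and 446, 485, 437 and 431 and 1215, 853, 374 and 359 CPM in primary tumor, at least 4.77-fold and 7.49-fold higher (adjusted p = 0.0461 and 0.0315), and both calls were lost without lung replicate 4, among others.

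**Figure D4:**
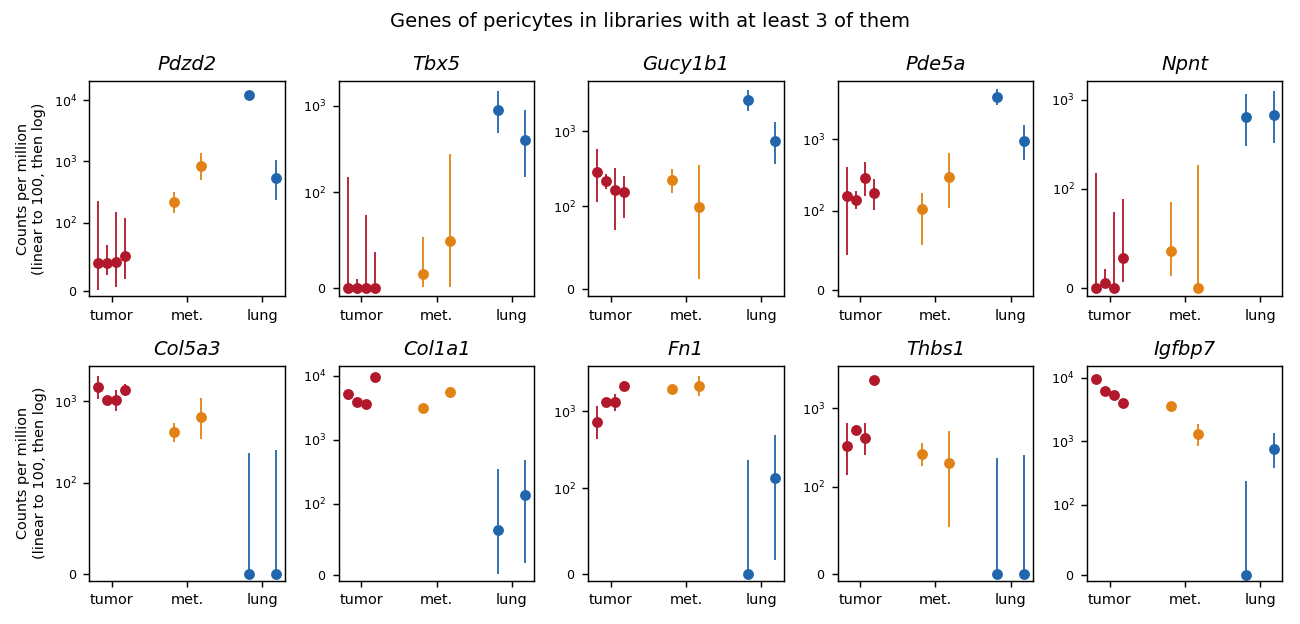
CPM of 10 genes in the pericytes of each library with at least 3 pericytes (y axis linear up to 100 and logarithmic above; bars are 95% Poisson intervals, which cover counting error only). Pdzd2, Tbx5, Gucy1b1, Pde5a and Npnt are higher in lung than in primary tumor; Col5a3, Col1a1, Fn1, Thbs1 and Igfbp7 are the reverse.

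Basement membrane genes, which pericytes lay down together with endothelium, had a median near that of all genes. Of 20 listed 13 were tested, 1 rose and none fell (2.18% and 1.91% of all genes), with a median log2 fold change of 0.14. The one was Col18a1, whose C-terminal fragment is endostatin, at 851, 1052, 1164 and 1251 CPM in primary tumor, 798 and 1587 CPM in metastasis and 0, 0, 136 and 0 CPM in lung (log2 fold change 3.86, SE 1.00, adjusted p = 0.0453); its call was lost without any one of primary tumor replicates 4, 5 and 6 or lung replicate 4. Endothelial cells of primary tumors held it at 366 to 849 CPM and those of lung at 0.361 to 10.8 CPM. Col4a1, the main type IV collagen chain, lay at 7494, 5832, 5862 and 8163 CPM in primary tumor, 3362 and 3818 CPM in metastasis and 857, 1524, 679 and 1366 CPM in lung and did not pass (2.48, adjusted p = 0.0799), though the tumor libraries lay above all lung libraries. Igfbp7, a secreted protein of activated vessels, lay at 9398, 6211, 5218 and 3979 CPM in primary tumor, 3526 and 1289 CPM in metastasis and 0, 0, 747 and 0 CPM in lung and was 14.5-fold higher in primary tumor (log2 fold change 3.86, SE 1.04, adjusted p = 0.0461; 3.13 with adjusted p = 0.186 without lung replicate 4, and lost in 5 of the 6 fits that left out 1 library).

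Contractile genes were uneven among lung pericytes. Acta2 lay at 1013, 4377, 6008 and 4133 CPM in primary tumor, 5889 and 99.2 CPM in metastasis and 0, 0, 13104 and 0 CPM in lung, where all of it came from the 2 cells of replicate 5. Metastasis replicate 6 and 3 lung libraries were low, and the tissues overlapped (log2 fold change -0.90, SE 1.25, adjusted p = 0.756). Of 20 contractile genes 12 were tested, none rose and 1 fell, against 1.91% of all genes, Ppp1r14a, an inhibitor of myosin phosphatase (-2.23, adjusted p = 0.044), whose call was lost in 5 of the 6 fits that left out 1 library. In the fit of at least 5 pericytes, which leaves out those 2 cells with lung replicate 5, and also primary tumor replicates 1-3 and metastasis replicate 6, 102 of 3304 genes were called (3.09%), and the groups did not overlap for 78.5%, which a lone lung library makes easy. There the 15 contractile genes tested had a median log2 fold change of 2.89, with Acta2, Tagln, Actg2, Myh11 and Tpm1 among the higher ones. The median was 2.12 with the 4 genes that had no UMI in 1 of the tissues set at their bound. Acta2 had no UMI in lung replicate 4 and could only be higher. Tagln (transgelin) lay at 689, 2039, 3035 and 2041 CPM in primary tumor, 2869.9 and 49.6 CPM in metastasis and 0, 190.5, 7605 and 0 CPM in lung and Myh11, the smooth muscle myosin heavy chain, at 203, 539.6, 1705 and 769 CPM in primary tumor, 194 and 49.6 CPM in metastasis and 0, 63.5, 6043 and 0 CPM in lung.

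The start of Acta2 is shown because this gene divides the pericytes of every tissue. CArG boxes are the sites that serum response factor reads with myocardin family cofactors in smooth muscle genes. In the 250 bases before its start (chr19:34255374-34255623, minus strand, GRCm38.p6, RefSeq) a search of both strands found no exact CArG box and 2 boxes with 1 letter off in the A/T core, which the capitals mark.
Acta2: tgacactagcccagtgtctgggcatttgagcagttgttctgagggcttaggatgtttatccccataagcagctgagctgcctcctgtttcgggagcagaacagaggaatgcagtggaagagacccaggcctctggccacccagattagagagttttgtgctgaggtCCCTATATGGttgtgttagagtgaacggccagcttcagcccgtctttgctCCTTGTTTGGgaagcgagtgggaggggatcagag
Of 32851 windows of this length, 1.47% held an exact box, 8.59% at least 1 box with at most 1 letter off and 0.67% at least 2. The windows of Rgs5 and Cnn1 (calponin) held none. A match is a description of letters.

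Pairs of signals between endothelium and pericytes were largely below the filter. Of 24 genes of the PDGF and TGF-β lists 5 were tested and none was called, with a median log2 fold change of -0.11 (128 of all 733 genes had an unadjusted p under 0.05). Of 14 Notch genes 1 was tested, the target gene Hes1, at 284, 109, 146 and 20.5 CPM in primary tumor, 89.5 and 49.6 CPM in metastasis and 1714, 317, 136 and 0 CPM in lung (-1.08, adjusted p = 0.677). Heyl, a Notch target of mural cells, lay at 446, 155, 83.2 and 133 CPM in primary tumor, 82 and 49.6 CPM in metastasis and 0, 63.5, 136 and 0 CPM in lung, and the ligand gene Jag1 at 243, 128, 291 and 256 CPM in primary tumor, 44.7 and 0 CPM in metastasis and 0, 63.5, 136 and 0 CPM in lung. The Tie2 ligand Angpt1 lay at 0, 10.9, 20.8 and 71.8 CPM in primary tumor, 22.4 and 0 CPM in metastasis and 0, 381, 136 and 683 CPM in lung, and its antagonist Angpt2 at 0, 95.4, 41.6 and 61.5 CPM in primary tumor, 89.5 and 149 CPM in metastasis and 0, 190.5, 67.9 and 0 CPM in lung. Primary tumor and lung overlapped for all 5 of these genes. For Heyl and Jag1 every primary tumor library lay above both metastasis libraries, and for Hes1, Angpt1 and Angpt2 the tumor sites overlapped. Of all 733 genes tested, 13.2% did not overlap between the tumor sites. In metastasis replicate 6 a single UMI is worth 49.6 CPM and the floor of 3 counts is 149 CPM, so low values there say little.

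On the endothelial side, Pdgfb was present in every library, with 192, 168, 165 and 193 CPM in primary tumor, 416, 249, 212 and 167 CPM in metastasis replicates 1-3, 4, 5 and 6 and 255, 159, 331 and 232 CPM in lung. Among metastasis libraries the 2 without pericytes had the higher values. Endothelial Angpt2 was 151, 98.2, 159 and 249.7 CPM in primary tumor, 22.7, 16.7, 234 and 122 CPM in metastasis and 9.07, 23.7, 40.9 and 30.6 CPM in lung, and so was low in the metastasis libraries without pericytes and in lung. Endothelial Nos3, which makes the nitric oxide that guanylate cyclase senses, was 116 to 160.3 CPM in primary tumor, 30.2 to 66 CPM in metastasis and 23.3 to 47.7 CPM in lung, with all primary tumor libraries on top. These endothelial values were not tested.

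Metastasis against primary tumor could be tested with 10 pericytes per library only between metastasis replicate 5 and primary tumor replicates 4 and 6, so metastasis is a lone library that is assumed to vary like the others. Of 3108 genes 24 were called (0.772%), 10 higher (0.322%) and 14 lower (0.45%; 15 and 13 with scaling by library sizes alone), by edgeR's quasi-likelihood test with Benjamini-Hochberg adjustment, with an overall median log2 fold change of -0.05. The groups did not overlap for 76.4% of genes. DESeq2 called 3. With both metastasis libraries (at least 3 pericytes, 733 genes) 2 were called (0.273%), Scgb1a1 and C3. With the replicate number as a block over all 8 libraries, 5 were called, Scgb1a1, C3 and Pdzd2 higher and Myh11 and Mustn1 lower, but this block also ties lung and replicate 4 libraries that share only a number. With replicates 5 and 6 of both sites alone, paired by the mouse numbers used, 3 of 1198 genes were called, Scgb1a1 and C3 higher and Parm1 lower. Pdzd2 (3.48, adjusted p = 0.158), Myh11 (-3.37, adjusted p = 0.189) and Mustn1 (-3.67, adjusted p = 0.178) were not. The pair of replicate 5 is uncertain, since an identical metastasis library carries another mouse number.

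Of the 10 genes called higher in metastasis, 2 are markers of lung epithelium, Scgb1a1 and Sftpc. Scgb1a1, the club cell secretoglobin, lay at 0 in primary tumor, 2236 and 1934 CPM in metastasis and 857, 63.5, 3123 and 2049 CPM in lung, at least 346-fold higher in metastasis replicate 5 than the floor of 3 counts in primary tumor (adjusted p = 3.33e-13). In the fit of at least 3 its call was lost without primary tumor replicate 4 (adjusted p = 0.291) or 6 (adjusted p = 0.0856). Every pericyte of metastasis replicate 5 held 7 to 24 UMIs of it, and endothelial cells of metastasis replicates 5 and 6 held 4089 and 2819.6 CPM. Sftpc, the surfactant gene of AT-2 cells, was at 239 and 248 CPM in metastasis and 0 in primary tumor (at least 36.9-fold higher, adjusted p = 1.30e-07), with 586 and 118 CPM in endothelial cells. Dct, a melanoma gene, lay at 122, 131, 270.2 and 708 CPM in primary tumor and 1953 and 645 CPM in metastasis and was not called (2.15, adjusted p = 0.329); endothelial cells held 234, 119, 337 and 1490.2 and 5263 and 1049 CPM in these libraries. Of the 12 melanoma genes 6 were tested, none was called and all 6 were positive, with a median of 2.50.

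Several of the other genes that rose were carried by few cells or by 1 library, with Ptgds as an exception. C3, a complement component, lay at 0, 43.6, 20.8 and 20.5 CPM in primary tumor and 306 and 1587 CPM in metastasis (log2 fold change 2.91, SE 0.61, adjusted p = 8.26e-04), but 35 of 41 UMIs in replicate 5 and all 32 in replicate 6 came from 1 cell each, both among the 4 metastasis cells with at least 5 Dcn and at most 1 Rgs5 UMI, and without metastasis replicate 6 the fit of at least 3 gave 3.32 with an adjusted p = 0.173. Hp, haptoglobin, lay at 0, 8.18, 0 and 10.3 CPM in primary tumor and 373 and 0 CPM in metastasis, with 50 UMIs in 6 of 21 cells of replicate 5 (log2 fold change 5.20, SE 0.72, adjusted p = 1.22e-09). Spon2, an extracellular matrix protein, was at 231 and 0 CPM in metastasis, seen in 10 of 21 cells of replicate 5 (log2 fold change 5.38, SE 0.95, adjusted p = 1.38e-05), against 1.99 and 3.47 CPM in endothelial cells. Ptgds, prostaglandin D synthase, was spread over more cells than these, at 40.5, 8.18, 20.8 and 41 CPM in primary tumor and 246 and 198 CPM in metastasis, with a UMI in 20 of 21 cells of replicate 5 (log2 fold change 3.67, SE 0.75, adjusted p = 5.77e-04), and endothelial cells held 603 and 297 CPM. The chemokine gene Ccl7 was at 40.5, 46.3, 0 and 30.8 CPM in primary tumor and 246 and 0 CPM in metastasis (2.42, adjusted p = 0.0148), and was not called without a filter (adjusted p = 0.0812), with at least 5 pericytes (0.0533) or by DESeq2.

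Among the 14 genes that fell were 2 early response genes. Fosb and Jun, subunits of the AP-1 transcription factor, fell in metastasis replicate 5, and were 2 of the 12 tested genes of the early response and heat shock list (median -1.12, none rose, and 0.45% of all genes fell). Fosb lay at 648, 352, 291 and 359 CPM in primary tumor and 14.9 and 843 CPM in metastasis (log2 fold change -4.64, SE 0.99, adjusted p = 0.0012). Jun lay at 2714, 417, 333 and 308 CPM in primary tumor and 29.8 and 2132 CPM in metastasis (log2 fold change -3.72, SE 0.89, adjusted p = 0.00678). Both were high in metastasis replicate 6, where 1 cell held 41 of 43 Jun UMIs and all 17 of Fosb, and with that library in the fit the values were 0.20 for Fosb and 0.69 for Jun, not called. Ccn1, a matricellular protein that is induced by stretch, was called lower (-4.73, adjusted p = 0.00291), at 243, 488, 291 and 1015 CPM in primary tumor and 29.8 and 397 CPM in metastasis, and was not called with metastasis replicate 6 in the fit (-1.55, adjusted p = 0.996). C1qa and C1qb, complement genes of macrophages, fell as well (adjusted p = 0.0262 and 0.00864); C1qa was present in 32 of 48 pericytes of primary tumor replicate 4, whose endothelial cells held 174 CPM. Both genes were at 0 in primary tumor replicate 6, no higher than in metastasis replicate 5, so these calls rest on primary tumor replicate 4. Igfbp5 (-4.58, adjusted p = 0.00124) lay at 40.5, 98.1, 125 and 636 CPM in primary tumor, so that it was high in replicate 6. Olfr558, Mfap5 and Emcn had no UMI in metastasis replicate 5, at least 6.07-fold, 5.78-fold and 4.43-fold lower against the floor of 3 counts there (adjusted p = 0.00187, 0.0123 and 0.0405). Emcn is a marker of endothelial cells, and its call was lost with library sizes alone (adjusted p = 0.0620), without a filter (0.0519), with at least 5 pericytes (0.0769) and without the cells with 5 Dcn UMIs (0.126). Mfap5 was not called with at least 5 pericytes (adjusted p = 0.155), and DESeq2 called none of the 3.

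Pdgfrb, Fn1 and Acta2 did not pass between the tumor sites, with wide errors. The log2 fold changes were -0.02 (SE 0.83) for Pdgfrb, 0.04 (SE 0.98) for Fn1 and 0.34 (SE 1.20) for Acta2. The 33 interstitial matrix genes tested had a median of -0.99 and the 15 contractile genes of -0.29, against -0.05 over all genes. Myh11 and Mustn1 were called lower with the number block, not with the mouse pairs alone. Medians were -0.72 for 14 basement membrane genes and -0.84 for 10 vasoactive genes. The medians of these lists rest on 1 metastasis library. All 12 glycolysis and hypoxia genes tested were higher in metastasis replicate 5, with a median of 1.24, and none was called. Over all genes 1494 of 3108 were higher there. Ldha, lactate dehydrogenase, lay at 284, 305, 416 and 338 CPM in primary tumor and 902 and 248 CPM in metastasis, and the cytokine gene Mif at 284, 294, 561 and 318 CPM in primary tumor and 1349 and 198 CPM in metastasis, so metastasis replicate 5 was high and replicate 6 within or below the primary tumor range. Melanoma RNA was also highest in metastasis replicate 5, and its part in these values was not tested. Scaling by library sizes alone moved the median of all genes by 0.12.

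Metastasis against lung, the comparison inside 1 organ, gave no call in the fit of at least 3 pericytes (0 of 733 genes, 119 at an unadjusted p under 0.05, smallest adjusted p = 0.0585, edgeR), while DESeq2 called 34. Col1a1 (5.53, adjusted p = 0.0585), Fn1 (4.92, adjusted p = 0.0585) and Gucy1b1 (-3.40, adjusted p = 0.0585) were among the genes closest to the threshold. The 24 tested interstitial matrix genes had a median of 3.26, against 0.30 over all genes, and 2.24 with the 5 genes without a UMI in lung at their bound, with none called. Pdzd2 (-3.55, adjusted p = 0.121) and Tbx5 (-5.00, adjusted p = 0.143) did not pass.

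In the fit of at least 5, which sets metastasis replicate 5 against lung replicate 4, 60 of 3304 genes were called (1.82%), 40 higher (1.21%) and 20 lower (0.605%), with an overall median of 0.47. With 1 library a side, 99.5% of genes did not overlap. Of 32 interstitial matrix genes 6 were called higher, but 17 of the 32 had no UMI in 1 of the 2 libraries, which fixes their direction (median 5.40, and 1.16 with those at their bound). The 15 contractile genes had a median of 2.16, and 1.69 with such genes at their bound. For the 13 glycolysis genes it was 3.13, and 2.78 with such genes at their bound. Acta2 and Mif had no UMI in lung replicate 4 and could only be higher. With lung replicate 5 and metastasis replicate 6 included, in the fit of at least 3, the contractile direction was the reverse. All 12 contractile genes tested there were lower in metastasis (median -1.89), and none was called. Markers of other cells were also higher in the fit of at least 5. They were the club cell gene Scgb1a1 (5.68, against 0.35 in the fit of at least 3) and the melanoma gene Dct, which had no UMI in lung (at least 10.3-fold). Their part in these values was not tested. Vasoactive genes fell in 2 of 11, Pde5a (-4.65, adjusted p = 0.00203) and Gucy1b1 (-2.96, adjusted p = 0.0258). Pdzd2 (-5.25, adjusted p = 0.00195), Tbx2 (-2.93, adjusted p = 0.033), Tbx5 (-5.24, adjusted p = 0.0364) and Ltbp2 (-3.24, adjusted p = 0.0159) fell as well. Each of these tests rests on 1 library a side. Mgp, a calcification inhibitor of the matrix, lay at 2390.0, 7367, 1912 and 1866 CPM in primary tumor, 8826 and 6645 CPM in metastasis and 0, 0, 1562 and 0 CPM in lung.

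A cell cycle transcript was seen in tumor pericytes. Mki67, a marker of the cell cycle, had a UMI in 13 of 71 primary tumor pericytes (18.3%) and 6 of 25 of metastasis (24%), against 11.7% and 6.00% of endothelial cells there. Thinned to 1000 UMIs these shares were 4.23%, 8%, 4.35% and 2.81%. In lung 0 of 10 pericytes held it, which allows a share of cells with a UMI of up to 30% and does not limit the share that express it, so a difference was not detectable at this number and depth of cells. Of the cycle genes 2 were tested in the fit of at least 3 and neither was called. In the same fit of primary tumor against lung none was called of 2 tested angiogenic, 2 chemokine and cytokine, 4 interferon and MHC, 8 glycolysis and hypoxia and 9 early response genes. The fit of at least 5, with lung replicate 4 alone, called 1 of 5 cycle genes higher (Tubb5), 1 of 13 glycolysis genes (Mif), 2 of 15 early response genes (Fosb and Egr1) and 1 of 8 angiogenic genes (Flt1), and 1 angiogenic gene lower (Angptl4), where 1.79% of all genes rose and 1.3% fell. The 5 that were higher had no UMI in lung replicate 4, and none of them was called in the fit of at least 3. Saa3, an acute phase gene, lay at 40.5, 2.73, 0 and 0 CPM in primary tumor, 7.45 and 248 CPM in metastasis and 0 in lung, and Il6 was seen in 1 library, at 5.45 CPM.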

How the data were processed

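The deposited count table, made by the authors with Cell Ranger 6.1.1 on GRCm38 from droplet 3′ libraries, holds UMI counts per gene and cell, not normalized, with cells already removed by the authors' quality limits (110283 barcodes under 24 library names, 32285 genes). A second deposited table of log-normalized values (Seurat 3.2.2) was not used. Of the names, 6 could not be matched to a TME or lung label or were melanoma cell samples and were not used, and 8585 repeated cells were counted once, which left 51511 cells in 12 libraries. Total UMIs per library were 1777036 to 53506609. Cell barcodes shared between libraries were at most 0.908% of the smaller library. Doublets were not called, and cells with a Ptprc, Pecam1, Hhip or Epcam UMI were left out.

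Endothelial cells had a UMI of Pecam1 and Cdh5 and none of Ptprc or Epcam (5097 cells). Fibroblasts had at least 3 of Dcn, Col1a1, Col1a2, Col3a1, Pdgfra and Lum, none of Ptprc, Pecam1 or Epcam and fewer than 2 pericyte genes (2621 cells). Pericyte counts were summed per library and fitted with edgeR 4.0.16 (all 3 tissues in 1 model, genes kept by filterByExpr, TMM factors, quasi-likelihood F test, Benjamini-Hochberg adjustment across every gene tested, threshold 0.05). The fit was planned for libraries with at least 10 pericytes. No lung library reached this, so for lung a fit of at least 3 was added after seeing the data, and a fit of at least 5 was used beside it. DESeq2 1.42.0 was another alternative. The self-test on simulated counts recovered 10.5% of genes changed by a log2 of 2 for metastasis against primary tumor in the fit of at least 10 (2726 genes), and 26% in that of at least 3 (613 genes). Shares were compared by exact permutation of library labels, two-sided. Intervals cover counting error only.

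Named genes are the 7 rule genes, a fixed list of pericyte genes, the 5 called genes that changed most in either direction (50 CPM or more on average, tissues not overlapping), and up to 4 called members a list. Other genes named (Mki67, Top2a, Igfbp5, Errfi1, Cnn1, Parm1, Tbx3, C1qa, C1qb, Dct, Hoxc6, Col5a1 and Col5a2 among them) were named after their values were seen. The members and lists were chosen with earlier results of these data known. By the library names used, replicates 5 and 6 of primary tumor and metastasis come from the same mice, as do part of the joined replicates 1-3 (no pericytes in metastasis), and replicate 4 does not. Identical copies of metastasis replicates 5 and 6 and of primary tumor replicate 6 carry other mouse numbers. The pair of replicate 5 and the mouse number of replicate 6 are therefore uncertain. A fit of the replicate 5 and 6 pairs alone was added after seeing the data. Their deviations from the group means correlated at -0.0141 and 0.377 over 733 genes. Gene positions are from GENCODE vM21 (GRCm38), and the promoter window is from RefSeq. R 4.3.3 and Python 3.11.15 were used.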

Additional observations from a re-analysis of the deposited data

Results flagged for a closer look

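In groups of 4 libraries, 14 of 93 groups of values held 1 library whose gap to the others passed Dixon's 95% limit, where chance gives about 1 in 20. The 87 groups of gene values were taken from primary tumor libraries alone, so their flags could fall nowhere else. The other flag, a ratio to endothelial cells, was also of a primary tumor library. Il6, Top2a and Foxf1 were seen in 1 library alone, which passes the limit at any level, so the chance rate does not hold for them. Primary tumor replicate 4 had 56.5 pericytes per 100 endothelial cells (others 4.88 to 7.92), Mgp at 7367 CPM (1866 to 2390), Il6 at 5.45 CPM (others 0) and Top2a at 24.5 CPM (others 0). Replicates 1-3, with 3 pericytes, had Jun at 2714 CPM (308 to 417), Egr1 at 1013 CPM (270 to 346), Emcn at 162 CPM (92.3 to 104), Col6a1 at 2147 CPM (1175 to 1313), Saa3 at 40.5 CPM (0 to 2.73) and Foxf1 at 40.5 CPM (others 0), the last 2 being 1 UMI each. Of the 67 Jun UMIs there, 66 came from 1 cell. Replicate 5 had Mif at 561 CPM (284 to 318). Replicate 6 had Thbs1 at 2266 CPM (324 to 521), Igfbp5 at 636 CPM (40.5 to 125) and Pdzd2 at 51.3 CPM (40.5 to 41.6).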

How the results depend on the processing

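Of the results that answer a comparison, 61 values under alternatives were counted as unchanged, 32 moved, 34 no longer passed, 3 passed newly and 3 changed sign. Shares and ratios were unchanged when they kept their direction and side of the threshold. Numbers of called genes were compared by size alone, so that 45 calls in place of 30 counted as unchanged and more distant numbers as moved. For single named genes 2770 were counted as unchanged, 190 passed newly, 163 no longer passed and 18 changed sign. A change of sign was counted only for genes called in the main fit, so the 2770 include uncalled genes that changed sign. An example is Acta2 between the tumor sites, positive in the main fit and -2.06 with the mouse pairs alone. For metastasis against primary tumor the 24 calls became 3 with DESeq2, 44 with at least 2 of 7 genes, 2 with at least 3 pericytes (2 also without cells with 5 Pdzd2 UMIs, 5 with the replicate block, 3 with the mouse pairs of replicates 5 and 6 alone) and 0 to 13 when 1 library was left out of that fit. For primary tumor against lung the 30 calls became 57 without a filter, 102 with at least 5 pericytes, 49 with at least 4 of 7 genes, 67 with at least 2, 4 in run 3 alone, and 9 (without primary tumor replicate 4) to 53 (without lung replicate 5). For metastasis against lung the 0 calls became 34 with DESeq2, 2 without a filter, 5 with the replicate block, 60 with at least 5 pericytes, 24 with at least 4 of 7 genes, 37 with at least 2, 6 in run 3 alone and 11 to 32 without 1 library. Where a left-out library leaves 1 in its tissue, that one is assumed to vary like the others. The cause of these shifts was not tested.

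The share difference between metastasis and primary tumor (-2.71 percentage points) passed with at least 2 of 7 genes (-3.41), after thinning (-0.879) and over all cells (-1.08). It did not pass with at least 4 of 7 genes (-2.21), without cells with 2 melanoma genes (-2.24) or without 1 library (-3.53 to -1.42). Nor did it pass with the replicate block (-2.71) or in run 3, which is replicates 5 and 6 of each tissue (-1.10). That of primary tumor against lung (2.80) was 2.19 without cells with 2 melanoma genes (p = 0.0571, exact permutation), 0.854 after thinning, 1.22 over all cells, 3.16 with the replicate block, 1.503 in run 3 and 1.51 to 3.62 without 1 library. That of metastasis against lung (0.0848) changed sign after thinning (-0.0253), without cells with 2 melanoma genes (-0.0485) and without metastasis replicate 6 (-0.0175), and reached 0.165 at most without 1 library and 0.404 in run 3. The melanoma setting left out 20 of the 21 pericytes of metastasis replicate 5. Pericytes per 100 endothelial cells, metastasis against primary tumor (-17.6), no longer passed with at least 4 of 7 genes (-14.1), after thinning (-16.4), with the replicate block (-17.6), in run 3 (-3.17) and without 1 library (-22.3 to -5.15); against lung (18.9) the primary tumor value no longer passed after thinning (17.3), with the block (22.8), in run 3 (6.19) and without 1 library (6.52 to 23.7). The designs with the block, run 3 or 1 library less cannot reach 0.05 by permutation.

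Of the named genes called in the main fit, those that changed sign were Mfap5 (0.0840 with at least 2 of 7 genes), Errfi1 (0.91 without metastasis replicate 5), Fosb (0.20 with at least 3 pericytes, 0.24 without the Pdzd2 cells, and 0.337, 0.396, 0.32, 0.523 and 1.502 without 1 library) and Jun (0.69, 0.69, 0.0663 with the replicate block, 0.171 with the mouse pairs alone, and 1.87, 0.605, 0.54, 0.623 and 1.81 without 1 library). In metastasis against primary tumor with at least 10 pericytes, leaving out a library, the block, at least 20 pericytes, at least 4 of 7 genes, leaving out cells with 2 melanoma genes and run 3 alone could not be fitted, nor could lung with at least 20 pericytes. Library sizes alone moved the share of higher calls from 41.7% to 53.6% (15 of 28). Lung was tested on few cells, with 8 pericytes in the 2 libraries tested.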
